A study of Mus musculus with 3 samples.

Results

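Natural killer (NK) cells with high levels of interferon-stimulated genes were selected on the summed level of 5 such genes, Isg15, Ifit1, Ifit3, Irf7 and Usp18, in single-cell RNA sequencing of sorted mouse NK cells from lung and blood. The members were the 5% of kept cells with the largest share of their unique molecular identifiers (UMIs, counted RNA molecules) in these genes, taken over all 3 libraries together, which gave 1056 of 21113 cells. Because the cells were chosen by these 5 genes, their levels are given as a description without a test, and tests were made on the other genes only. The class is a range of a per-cell score and not a cell type.

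The 3 libraries held cells of untreated (naive) mice, and of mice killed 6 h or 14 days after an intravenous dose of 100000 PyMT mammary tumor cells, a model of lung metastasis. All mice were wild-type females of 9 weeks, and the cells were sorted as live and positive for NK1.1 and NKp46 from lung and blood. Lung and blood cells of a time point shared a library and were told apart by hashtag antibodies, B0304 read as lung and B0306 as blood following the sequence of tissues and tags given in the methods. With 1 library per time point, time cannot be told apart from library, and shares carry counting intervals only. Kept cells numbered 3676 in naive lung, 4367 in naive blood, 4680 in 6 h lung, 2746 in 6 h blood, 3575 in 14-day lung and 2069 in 14-day blood. The libraries shared between 17 and 27 of their kept barcodes with another library.

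Type I interferons bind the receptor made of Ifnar1 and Ifnar2, whose kinases Jak1 and Tyk2 act on transcription factors of the STAT family. These join Irf9 in a complex that binds interferon-stimulated response elements in promoters and switches on antiviral genes, among them Irf7, which feeds the response forward, and Usp18, which restrains it at the receptor. Isg15 is a ubiquitin-like protein that is attached to other proteins, and the Ifit proteins bind viral RNA. In NK cells, type I interferon is known as a stimulus of cytotoxicity.

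The promoters of 4 score genes are shown because the interferon complex binds an element whose letters can be looked for in them. The core letters GAAANNGAAA, on either strand, are printed in capitals, and overlapping matches run together. Windows from RefSeq (GRCm38.p6) run from 250 bases before to 50 after the start, 5′ to 3′ along the gene. They are chr4:156200769-156201068 (minus strand) for Isg15, chr19:34640639-34640938 (plus) for Ifit1, chr19:34583279-34583578 (plus) for Ifit3 and chr7:141266375-141266674 (minus) for Irf7. The windows of Jaml at chr9:45078933-45079232 (plus) and Ifi211 at chr1:173912997-173913296 (minus) are shown for genes outside the score that were higher in members of both tissues. Both hold a match, as did 8 of the 21 windows of such genes. Those of Ifi44, Oasl2, Psmb9, Parp12 and Hsh2d, also higher in both tissues, held none and are not shown.
Isg15: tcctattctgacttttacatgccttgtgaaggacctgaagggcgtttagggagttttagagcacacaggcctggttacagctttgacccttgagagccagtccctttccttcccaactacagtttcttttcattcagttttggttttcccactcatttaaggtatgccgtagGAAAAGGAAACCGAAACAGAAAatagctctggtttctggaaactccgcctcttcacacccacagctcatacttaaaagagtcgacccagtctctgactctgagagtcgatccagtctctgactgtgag
Ifit1: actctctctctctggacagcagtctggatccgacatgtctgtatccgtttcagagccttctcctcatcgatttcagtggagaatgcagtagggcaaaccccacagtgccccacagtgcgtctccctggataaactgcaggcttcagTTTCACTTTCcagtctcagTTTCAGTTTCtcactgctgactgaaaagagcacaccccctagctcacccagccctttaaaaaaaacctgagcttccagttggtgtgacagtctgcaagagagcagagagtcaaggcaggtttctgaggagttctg
Ifit3: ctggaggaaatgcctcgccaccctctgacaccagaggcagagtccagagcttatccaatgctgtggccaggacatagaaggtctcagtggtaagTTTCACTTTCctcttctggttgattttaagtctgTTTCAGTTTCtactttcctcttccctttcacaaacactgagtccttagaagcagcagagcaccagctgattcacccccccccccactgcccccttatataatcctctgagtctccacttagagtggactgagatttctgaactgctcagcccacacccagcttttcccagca
Irf7: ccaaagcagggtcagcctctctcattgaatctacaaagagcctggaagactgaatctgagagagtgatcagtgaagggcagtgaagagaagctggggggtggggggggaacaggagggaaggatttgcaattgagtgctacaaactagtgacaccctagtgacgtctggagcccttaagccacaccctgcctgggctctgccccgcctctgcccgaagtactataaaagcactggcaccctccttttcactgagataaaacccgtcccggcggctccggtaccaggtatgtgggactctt
Jaml: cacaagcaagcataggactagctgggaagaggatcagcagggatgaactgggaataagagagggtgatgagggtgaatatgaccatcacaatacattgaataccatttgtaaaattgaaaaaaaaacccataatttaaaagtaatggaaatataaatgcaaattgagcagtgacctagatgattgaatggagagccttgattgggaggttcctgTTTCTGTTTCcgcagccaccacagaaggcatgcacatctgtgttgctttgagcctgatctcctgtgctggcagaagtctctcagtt
Ifi211: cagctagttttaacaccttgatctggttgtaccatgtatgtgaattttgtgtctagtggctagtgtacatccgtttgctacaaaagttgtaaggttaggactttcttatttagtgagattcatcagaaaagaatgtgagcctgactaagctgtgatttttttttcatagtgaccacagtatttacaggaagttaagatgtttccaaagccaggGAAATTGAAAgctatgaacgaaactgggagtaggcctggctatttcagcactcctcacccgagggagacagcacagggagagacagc
Isg15 had 3 overlapping matches, at 78, 72 and 66 bases before the start, Ifit1 had 2 and Ifit3 had 2, and the Irf7 window held none. Usp18 was not among the windows used.

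**Figure D1:**
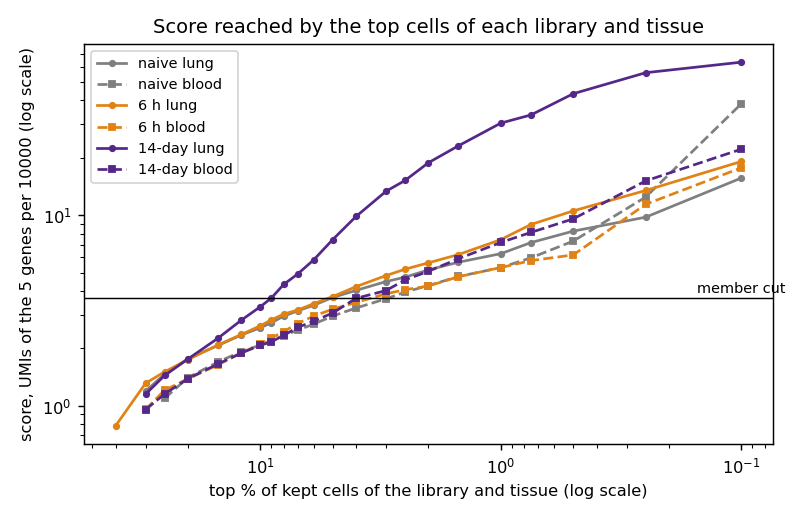
Score (UMIs of the 5 genes per 10000, log scale) reached by the top percent of kept cells (log scale, rarest cells to the right) in each library and tissue; solid lines are lung, dashed lines blood, and the horizontal line is the member cut. The 14-day lung curve rises to 30.4 at the top 1% of cells, while the curves of the other libraries and tissues lie between 5.31 and 7.44 there.

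The score was sparse, and the cut fell in a continuous range. Of all kept cells, 13576 (64.3%) had no UMI of the 5 genes. The lowest member had 3.674 score UMIs per 10000 and the highest other cell 3.672, and the 10 members nearest the cut reached 3.69 while the 10 nearest other cells went down to 3.65. Within 1 UMI of the cut lay 541 members (51.2%) and 1988 other cells. The median member had 3 score UMIs, a score of 5.28 per 10000 and 6349 UMIs in all, against 6769 UMIs in the other cells. The highest score was 84.7 per 10000.

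Most members carried few of the genes that chose them. Of the 1056 members, 262 had UMIs of 1 of the 5 genes, 433 of 2, 189 of 3, 80 of 4 and 92 of all 5, so 695 cells rested on 1 or 2 genes and 361 on 3 or more. Beyond the score, 12 of the other type I interferon effectors were found in the median cell without any score gene, and 11, 14, 22, 29 and 36 in the median member with 1, 2, 3, 4 and 5 score genes. These numbers are not corrected for depth: the median cell without a score gene had 6466 UMIs and the median member with 1 score gene 5151. The summed level of these effectors was 4754 UMIs per 1000000 (CPM; 95% CI 4740 to 4768) in other cells without a score gene. It was 5306 (95% CI 5187 to 5428) in members with 1, 6724 with 2, 9905 with 3, 12975 with 4 and 17292 (95% CI 17029 to 17558) with all 5. Intervals of counts are exact Poisson intervals, those of shares exact binomial, and both cover counting error only.

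**Figure D2:**
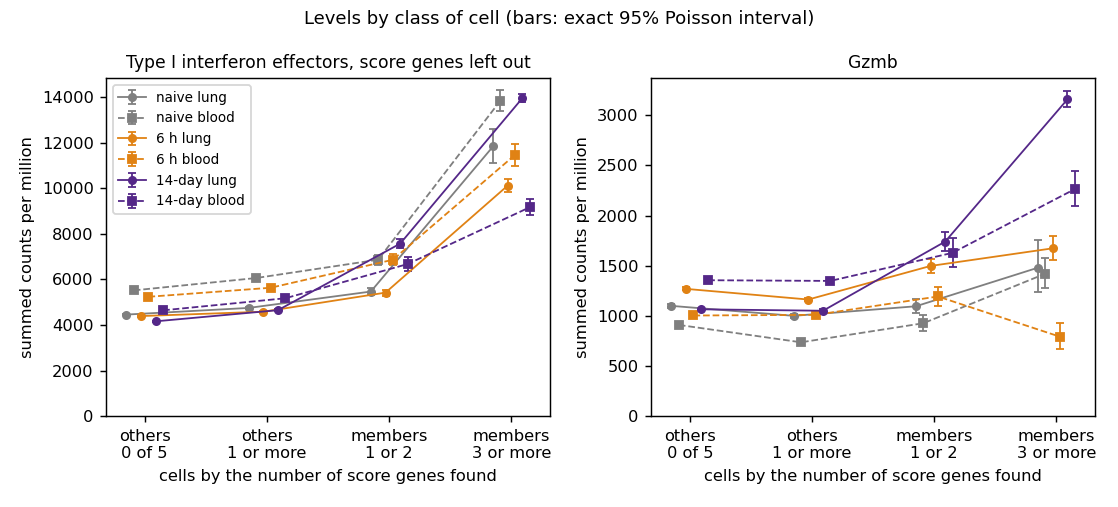
Summed CPM of the type I interferon effectors, score genes left out (left), and of Gzmb (right), in other cells with none or with 1 or more of the 5 score genes and in members with 1 or 2 or with 3 or more, by library and tissue (solid lung, dashed blood; bars are exact 95% Poisson intervals). The effectors are highest in members with 3 or more genes in all 6 library and tissue groups, and Gzmb reaches 3159 CPM in those of 14-day lung.

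The step from few to many score genes was present in every library and tissue. In members with 3 or more genes, the effectors summed to 11831 CPM in naive lung, 13837 in naive blood, 10116 in 6 h lung, 11461 in 6 h blood, 13950 in 14-day lung and 9164 in 14-day blood. In members with 1 or 2 genes the sums were 5469, 6866, 5422, 6863, 7570 and 6673 CPM in the same order, and in other cells without a score gene they lay between 4164 and 5521. In each library and tissue the members with 3 or more genes were above those with 1 or 2, and these above other cells without a score gene, although the latter values overlap across the 6 groups. The naive lung value rests on 13 cells.

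RNA outside cells and cells of other types were measured beside the score. In barcodes with at most 100 UMIs, the 5 genes made up 1.25, 1.48 and 2.10 UMIs per 10000 in the naive, 6 h and 14-day libraries. The other cells had 0.534, 0.625 and 0.537 and the members 6.67, 6.45 and 13.0. That members were above other cells follows from the choice of members by the same genes. The level outside cells was above that of the other cells in each library. The choice also lowers the level of the other cells, since the cells highest in these genes were taken out of them. How much of a member's score came from RNA outside cells was not tested. The other effectors, which were not used for that choice, had 49.0, 48.8 and 54.1 UMIs per 10000 outside cells, 51.9, 48.2 and 45.3 in other cells and 73.4, 71.4 and 114 in members. Among 37 markers of other cell types, a UMI of at least 1 was found in 67.5% of members and 68.8% of other cells. The 8 NK markers summed to between 13017 and 23688 CPM in members and between 15866 and 22956 in other cells, and 0 of 8 differed between them in either tissue (edgeR quasi-likelihood test, Benjamini-Hochberg adjusted p under 0.05). In 14-day lung the sums were 13017 CPM in members and 15866 in other cells. Among members with 3 or more score genes, 2 of the 8 were lower in lung and 1 in blood, beside 85 and 50 of all 11597 genes tested.

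RNA of myeloid cells was high in a few members at 6 h. The myeloid markers summed to 719 CPM in 6 h lung members against 107 in other cells, and to 766 against 144 in 6 h blood, while the other groups had between 102 and 143 in members and between 114 and 211 in other cells. In 6 h lung, 2 members held all 917 UMIs of Lyz2, the lysozyme of myeloid cells, and in 6 h blood 1 member held all 395. No member of the naive library had a Lyz2 UMI. The 6 h lung members also held most of their Ifitm3, an antiviral membrane protein, in few cells: 3 cells held 98.6% of its 215 UMIs in 6 h lung. T cell markers summed to between 41.3 and 218 CPM in members and between 29.6 and 52.5 in other cells, higher in members in each of the 6 groups, although 0 of the 4 tested passed. Among members with 3 or more score genes, 1 T cell marker was higher in each tissue, and 1 myeloid marker in lung and 2 in blood. Of all 11597 genes tested in these members, 331 were higher in lung and 231 in blood. Cd3g, a subunit of the T cell receptor complex, had 138 CPM in 14-day blood members, where 11 of 82 cells held its UMIs, against 21.2 in other cells, and Cd4 was not found in members. Of the B cell, endothelial and epithelial markers 1 each could be tested and 0 passed, and of the fibroblast, platelet and erythroid markers none reached the minimum. Only 6601 of 21113 kept cells had no UMI of any of these 37 markers, and 330 of them were members. In these cells 94 of 9563 genes tested were called in lung and 14 in blood, and the effector medians were 1.37 and 1.08. The share of members in 14-day lung was 1.56 times that of naive lung there (95% CI 1.15 to 2.10). Leaving out every cell with a marker UMI also drops most NK cells, so it does not single out cells of other types.

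Members were most frequent in 14-day lung. They made up 185 of 3676 cells in naive lung (5.03%, 95% CI 4.35 to 5.79), 245 of 4680 in 6 h lung (5.24%, 4.61 to 5.91) and 321 of 3575 in 14-day lung (8.98%, 8.06 to 9.96). In blood they were 127 of 4367 (2.91%, 2.43 to 3.45) in naive mice, 96 of 2746 (3.50%, 2.84 to 4.25) at 6 h and 82 of 2069 (3.96%, 3.16 to 4.90) at 14 days. The share of 14-day lung was 1.78 times that of naive lung (95% CI 1.498 to 2.125) and 2.27 times that of 14-day blood (1.79 to 2.87). Between 6 h and naive lung the ratio was 1.04 (0.864 to 1.25), and between 6 h and naive blood 1.20 (0.926 to 1.56), so that neither differed beyond counting error. The 14-day to naive ratio in blood was 1.36 (1.04 to 1.79). These ratios compare single libraries and have no replicate check.

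The members with 3 or more score genes were distributed more unevenly than the members as a whole. They were 13 cells in naive lung (0.354% of kept cells, 95% CI 0.188 to 0.604), 53 in 6 h lung (1.13%, 0.849 to 1.48) and 212 in 14-day lung (5.93%). In blood they were 29 in naive mice (0.664%), 21 at 6 h (0.765%) and 33 at 14 days (1.59%). As a share of members, these were 7.03% in naive lung, 21.6% in 6 h lung and 66.0% in 14-day lung, and 22.8%, 21.9% and 40.2% in blood. The share of 14-day lung was 16.8 times that of naive lung (95% CI 9.60 to 29.3) and 3.72 times that of 14-day blood (2.59 to 5.34). In naive mice the order of the tissues turned: over all members lung exceeded blood 1.73 times (1.39 to 2.16), while for members with 3 or more genes the ratio was 0.533 (0.277 to 1.02). In 6 h lung the share was 3.20 times that of naive lung (1.75 to 5.86), where all members gave 1.04.

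The share was also highest in 14-day lung at equal depth. After each cell was thinned to 3000 UMIs, 114 of 3537 cells of 14-day lung (3.22%, 95% CI 2.67 to 3.86) had 3 or more of the 5 genes, against 3 of 3590 in naive lung (0.0836%, 0.0172 to 0.244) and 12 of 4640 in 6 h lung (0.259%). In blood these were 11 of 4292 (0.256%), 6 of 2726 (0.220%) and 9 of 2063 (0.436%) in naive mice, at 6 h and at 14 days. The shares of cells with at least 1 gene were close together, between 15.5% and 21.5% in the 6 groups.

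**Figure D3:**
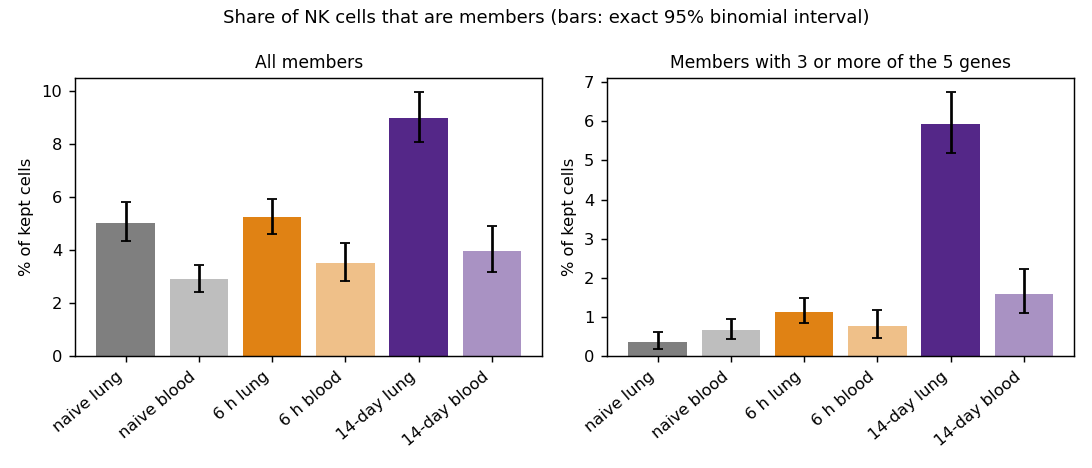
Percent of kept cells that are members, for all members (left) and for members with UMIs of 3 or more of the 5 score genes (right), in each library and tissue; bars show the exact 95% binomial interval. All members reach 8.98% in 14-day lung, and those with 3 or more genes 5.93% there and at most 1.59% elsewhere.

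The 5 score genes did not rise evenly across the samples. Isg15 (ENSMUSG00000035692, chromosome 4 from 156199424 to 156200818 of GRCm38) had 173 CPM in members of naive lung, 256 in naive blood, 299 in 6 h lung, 238 in 6 h blood, 469 in 14-day lung and 277 in 14-day blood, and between 11.6 and 20.7 in other cells. Ifit3 (ENSMUSG00000074896, chromosome 19 from 34583531 to 34588731) had 20.2, 77.3, 18.5, 31.5, 250 and 52.8 CPM in the same order, and at most 1.90 in other cells. Ifit1 (ENSMUSG00000034459, chromosome 19 from 34640871 to 34650009) had 19.2, 103, 30.5, 57.3, 200 and 54.4, with at most 2.20 in other cells. The Ifit genes were thus highest in 14-day lung and low in naive and 6 h lung members, where 4.86% and 9.39% of members had an Ifit3 UMI against 52.3% in 14-day lung.

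Irf7 and Usp18 were more even. Irf7 (ENSMUSG00000025498, chromosome 7 from 141262706 to 141266481) had between 150 CPM in 6 h blood members and 233 in 14-day lung members, and between 18.8 and 29.9 in other cells. Usp18 (ENSMUSG00000030107, chromosome 6 from 121245906 to 121270917) had between 115 and 286 CPM in members and between 10.5 and 15.2 in other cells. In naive lung 65.9% of members had a UMI of Irf7, beside 15.98% of other cells there, and 7.03% a UMI of Ifit1, so the naive lung members rested mainly on Irf7, Isg15 and Usp18.

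Genes outside the score were compared between members and the remaining cells of their own library and tissue, on 12 summed profiles with the library and tissue as a block. Of 11897 genes tested with edgeR's quasi-likelihood test at a Benjamini-Hochberg adjusted p under 0.05, 119 (1.00%) were higher and 17 (0.143%) lower in lung members, and 30 (0.252%) were higher and 12 (0.101%) lower in blood members. In both tissues 26 genes were higher and 1, Fry, was lower, with none opposite. The pairs behind each tissue are 3 libraries, each of another time point, and the lung and blood cells of a library may come from the same mice. Among 21 called results of list genes named by rule, the direction held in all alternatives run except for Ly6a, whose log2 fold in lung was -0.49 in members with 1 or 2 score genes.

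Type I interferon effectors were higher in members in part. Of 60 tested, 21 were higher in lung members and 6 in blood members, and 0 were lower, with a median log2 fold of 1.72 in lung and 1.31 in blood against -0.01 and -0.03 over all genes tested. Summed CPM was higher in members in 6 of 6 library and tissue pairs for 42 of the 60, against 2.93% of all genes tested, and lower in 6 of 6 for 0, against 6.08%. The median log2 ratio of CPM was 0.48 in naive lung, 1.02 in naive blood, 0.92 in 6 h lung, 1.07 in 6 h blood, 2.22 in 14-day lung and 0.93 in 14-day blood. These medians thus differed more between libraries in lung than in blood. The mix of members differed as well. In lung 7.03%, 21.6% and 66.0% of naive, 6 h and 14-day members had 3 or more score genes. In blood these were 22.8%, 21.9% and 40.2%. How far this mix sets the medians was not tested. The count moved with the fit: without the robust prior, 49 were higher in lung and 25 in blood, and with DESeq2 41 and 30.

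Ifi44, an interferon-induced protein (ENSMUSG00000028037, chromosome 3 from 151730922 to 151749960), had 14.4, 31.7, 22.1, 18.6, 93.5 and 9.90 CPM in members of naive lung, naive blood, 6 h lung, 6 h blood, 14-day lung and 14-day blood, and between 0.796 and 3.57 in other cells. Its log2 fold was 4.47 (SE 0.29, adjusted p 7.9e-13) in lung and 3.78 (SE 0.38, adjusted p 1.8e-07) in blood with edgeR. Isg20, an RNA exonuclease (ENSMUSG00000039236, chromosome 7 from 78913424 to 78920396), had 17.3, 22.8, 18.5, 14.3, 230 and 14.8 CPM in members, and 30.5 in other cells of 14-day lung against at most 3.25 elsewhere. Its log2 fold was 2.92 in lung and 2.79 in blood. Isg20 was thus high in 14-day lung in both classes of cells, with a like ratio between them.

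Rsad2 and Mx1 had large but uneven ratios. Rsad2, the antiviral enzyme viperin, had 7.70, 43.1, 12.6, 17.2, 137 and 26.4 CPM in members in the same order and at most 1.29 in other cells, with a log2 fold of 5.21 in lung (SE 0.90, adjusted p 0.149, edgeR) and 5.71 in blood (adjusted p 0.227). Mx1, an antiviral GTPase, had 29.8, 53.2, 25.7, 63.0, 188 and 62.7 CPM, against 7.53 to 12.8 in other cells, and a log2 fold of 3.08 in lung (adjusted p 0.339, edgeR). Both were higher in members in 6 of 6 pairs, and neither passed. Oasl2, of the oligoadenylate synthetase family, passed in both tissues, with log2 folds of 4.14 and 3.66. Ifit3b passed as well (6.93 and 6.51), but as a near copy of the score gene Ifit3 it can share reads with it.

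The most abundant effectors had small ratios. Ms4a4b, a membrane protein of lymphocytes and the highest of the list, had between 1723 and 2329 CPM in members and between 1045 and 1656 in other cells, with a log2 fold of 0.63 in lung and 0.44 in blood that did not pass (adjusted p 0.476 and 0.650, edgeR). Epsti1 passed in lung at a log2 fold of 0.30 (adjusted p 0.0203, edgeR). Shisa5 (0.54 and 0.37), the nuclear body protein Sp100 (0.60 and 0.40) and the restriction factor Trim30a (1.58 and 1.39) were higher in members in 6 of 6 pairs and did not pass. Ms4a4b therefore carried much of the summed level of the list while single less abundant genes carried the largest ratios.

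**Figure D4:**
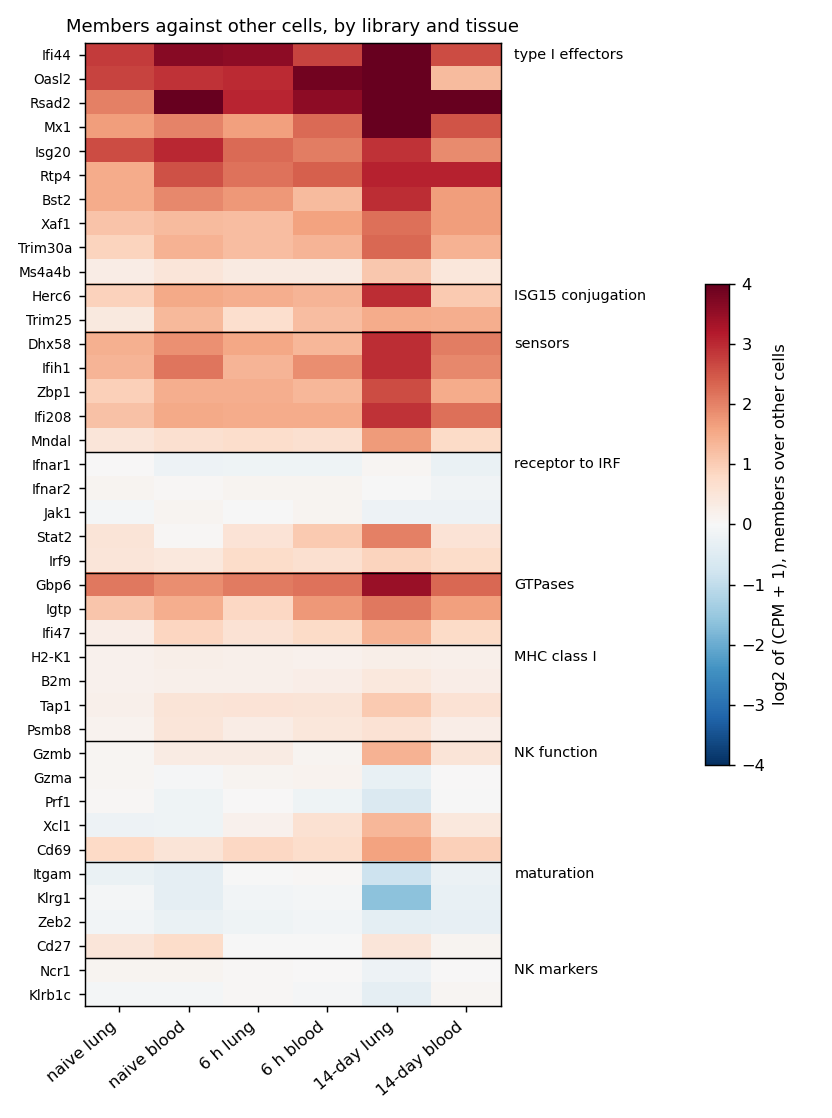
Log2 ratio of (CPM + 1) in members over other cells for genes of the named groups (rows) in each library and tissue (columns); red is higher in members, and the colour scale ends at 4 in each direction. The plotted effectors, sensors and GTPases are red in all 6 columns, with Mx1 and Herc6 deepest in 14-day lung at 188 and 290 CPM in members, while Ifnar1, Ifnar2 and Jak1 stay near 0.

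Genes of the ISG15 pathway and the nucleic acid sensors followed. Of 4 genes of ISG15 conjugation 1 passed in each tissue: Trim25, a ubiquitin and ISG15 ligase, with log2 folds of 1.00 in lung (adjusted p 0.0188, edgeR) and 1.36 in blood (adjusted p 0.0180). Herc6, the mouse ISG15 ligase, had 76.0 to 290 CPM in members and 34.5 to 60.6 in other cells and did not pass (log2 fold 1.99, adjusted p 0.318 in lung, edgeR). Uba7, the activating enzyme, had a log2 fold of 0.40 in lung and 0.38 in blood, and Ube2l6, the conjugating enzyme, of 1.16 and 1.00, and neither passed. Of 20 sensors 4 were higher in lung and 2 in blood, with medians of 1.73 and 1.47. Dhx58, a regulator of RNA sensing, had between 12.5 and 36.4 CPM in members and between 3.79 and 5.57 in other cells, with log2 folds of 2.44 and 1.96. Ifi211, of the interferon-inducible family that senses DNA, passed in both tissues at 3.69 and 3.73.

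The abundant sensors were higher in members of all groups without passing. Mndal had a log2 fold of 1.04 in lung, Ifi203 of 1.19, Ifi209 of 1.30 and Ifi206 of 1.63, each higher in 6 of 6 pairs. Aim2, a DNA sensor of the inflammasome, was the exception, at 0.08 in lung and -0.21 in blood.

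Signalling genes upstream of the response gave few calls. Of 18 receptor, JAK, STAT and IRF genes 2 were higher in lung members and 0 in blood, with medians of 0.08 and 0.03. The receptor chains Ifnar1 (log2 fold 0.01 in lung and -0.21 in blood) and Ifnar2 (0.11 and 0.02) did not pass. The same held for the abundant members Jak1 (-0.06 in lung), Ifngr1 (-0.05), Irf8 (0.05), Stat4 (-0.02) and Stat3 (0.04). Irf9, the DNA-binding subunit of the complex, had 48.1 to 73.0 CPM in members and 34.4 to 46.3 in other cells, which did not overlap, and passed in lung (log2 fold 0.80, SE 0.12, adjusted p 0.000201, edgeR). Irf1 passed in lung at 0.47.

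Inhibitors and ligands gave no calls over all members. Of 7 feedback inhibitors 0 passed in either tissue. Among members with 3 or more score genes 2 were higher in lung and 1 in blood, beside 331 and 231 of 11597 genes. Socs1, an inhibitor of the kinases, had 43.3 to 131 CPM in members and 29.0 to 63.6 in other cells, with a log2 fold of 0.70 in lung (adjusted p 0.0960, edgeR), and Ptpn2, Pias1, Ptpn6 and Socs3 did not pass either. Of 11 interferon genes only Ifng, the type II interferon that NK cells make, reached the minimum. Its log2 fold of 0.46 in lung and 0.36 in blood did not pass. Among members with 3 or more score genes Ifng passed in both tissues, at 1.01 in lung and 0.76 in blood. Of the type I and type III interferon genes on the list, Ifnk alone had a UMI, and none was in a member.

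Interferon-inducible GTPases and poly(ADP-ribose) polymerases (PARPs) passed in part. Of 16 GTPases 5 were higher in lung and 2 in blood, with medians of 1.22 and 0.84. Gbp6, a guanylate-binding protein, had 26.0 to 88.6 CPM in members and 5.31 to 11.1 in other cells (log2 folds 2.85 and 2.24), and Igtp had 26.0 to 77.3 against 11.5 to 20.5 (1.58 and 1.67). Both passed in both tissues and did not overlap between members and other cells, although Gbp genes are close copies whose reads the counting may split. Gbp8 passed in lung at 0.51, and the more abundant Ifi47 (0.88 in lung), Gbp7, Gvin1 and Gbp4 did not pass. Of 6 PARPs and partners 4 passed in lung and 1 in blood: Parp10 (1.07), Parp11 (1.46) and Dtx3l (1.10) in lung, and Parp12 in lung (2.78) and blood (3.21). Parp14 and Parp9, the most abundant, had log2 folds of 1.32 and 1.59 in lung without passing.

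Genes of antigen presentation on MHC class I had small ratios. Of 22 tested, 13 were higher in lung members and 6 in blood, and 0 were lower, with medians of 0.34 and 0.38. B2m, the light chain of MHC class I (ENSMUSG00000060802, chromosome 2 from 122147686 to 122153083), had 2085, 2300, 2615, 2834, 3002 and 2585 CPM in members of naive lung, naive blood, 6 h lung, 6 h blood, 14-day lung and 14-day blood, against 1869, 1986, 2274, 2379, 2227 and 2139 in other cells. Each library and tissue had the higher value in members, by log2 folds of 0.31 in lung (SE 0.06, adjusted p 0.00314, edgeR) and 0.26 in blood (SE 0.06, adjusted p 0.0380). The immunoproteasome subunits Psmb8 (0.40 and 0.41) and Psmb9 (0.49 and 0.42) passed in both tissues, and the heavy chains H2-K1 (0.25) and H2-D1 (0.22) in lung. H2-Q7 passed in both (0.22 and 0.27), a gene of a family of near copies. Tap1, a peptide transporter, passed in lung (0.71).

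Of 3 surface proteins of the Ly6 family tested, 1 passed in lung and 0 in blood. Ly6a, of lymphocyte activation, had 17.3, 6.34, 5.98, 17.2, 81.1 and 3.30 CPM in members and at most 6.04 in other cells, and passed in lung (log2 fold 4.27, adjusted p 0.00570, edgeR). In naive lung 2 cells held all 18 of its UMIs, while in 14-day lung 31 cells held 216. Ly6e, also interferon-induced, had 182 to 779 CPM in members and did not pass (0.77 in lung), and Ly6c2 had log2 folds of 0.11 and 0.36.

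Outside the lists, the genes higher in both tissues by the rule were Jaml, Treml2, Hsh2d, Lilrb4a, Ogfr, Pim2, Tspo and Tmsb10. Jaml, an adhesion molecule of the junctional family (ENSMUSG00000048534, chromosome 9 from 45079183 to 45108534), had 5.77, 20.3, 8.97, 12.9, 97.2 and 13.2 CPM in members of naive lung, naive blood, 6 h lung, 6 h blood, 14-day lung and 14-day blood, against 0.713, 2.36, 2.25, 3.23, 18.0 and 2.94 in other cells. It was higher in members of every group, by log2 folds of 2.44 in lung (SE 0.25, adjusted p 1.8e-07, edgeR) and 2.49 in blood (SE 0.35, adjusted p 0.000104). Hsh2d, an adaptor of lymphocyte signalling, had 15.4 to 58.9 CPM against 8.29 to 11.9 (1.83 and 1.57), and the inhibitory receptor Lilrb4a had log2 folds of 1.12 and 1.41. Treml2 had 1.68 and 1.83, the kinase Pim2 0.65 and 0.84, Ogfr 0.89 and 0.71, the mitochondrial protein Tspo 0.38 and 0.30 and the actin-binding Tmsb10 0.22 and 0.24. Fry, which passed in the other direction, had 30.8 to 124 CPM in members against 65.3 to 191 in other cells and fell by 0.56 in lung and by 0.68 in blood on the log2 scale.

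The promoter windows of the genes that moved were searched for the same letters. Of the 26 genes higher in both tissues 21 had a window, and 8 of these (38.1%) held GAAANNGAAA on either strand. Of 87 windows of genes higher in lung members 22 did (25.3%), of 13 windows of genes lower in lung members 0, and 1079 of all 27025 genes with a window did (3.99%). Among the lists, 23 of 51 effectors (45.1%), 8 of 9 GTPases (88.9%) and 5 of 18 MHC class I genes (27.8%) held it. The window of Ifi44, the steepest gene by adjusted p, held none. The letters TTCNNNGAA, of the element to which STAT dimers bind, were in 17.6% of effector windows and 9.55% of all. A match is a description of letters and not a measured site.

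Over all members, NK effector genes passed in 1 case. Of 12 cytotoxic genes 1 was higher in lung and 0 in blood, with medians of 0.07 and 0.15. It was Tnfsf10, the death ligand TRAIL, which had 8.66 to 82.2 CPM in members and 5.66 to 30.3 in other cells and a log2 fold of 1.22 in lung (adjusted p 0.000588, edgeR). Gzmb, the granule protease granzyme B, had 1129 CPM in members of naive lung, 1085 in naive blood, 1548 in 6 h lung, 1086 in 6 h blood, 2765 in 14-day lung and 1935 in 14-day blood, against 1067, 858, 1225, 1007, 1061 and 1354 in other cells. Members were higher in every group, but by a log2 ratio of 1.38 (95% CI 1.34 to 1.42) in 14-day lung and between 0.08 and 0.52 elsewhere. Gzmb did not pass (log2 fold 0.65 in lung, adjusted p 0.710, edgeR). The members differed in kind: 66.0% had 3 or more score genes in 14-day lung and 7.03% in naive lung. Over all libraries Gzmb had 2541 CPM in members with 3 or more and 1352 with 1 or 2. This pooled pair cannot be told apart from library and tissue. Of the 361 members with 3 or more genes 212 were from 14-day lung, against 109 of the 695 with 1 or 2. With library and tissue as a block, members with 3 or more genes had Gzmb log2 folds over other cells of 0.92 in lung and 0.44 in blood. Neither passed (adjusted p 0.610 and 0.834, edgeR). How far the number of score genes sets the ratios of single groups was not tested. Other granule genes were lower in members of 14-day lung: Gzma, granzyme A, had 7840 against 9602 CPM (log2 ratio -0.29, 95% CI -0.31 to -0.27), the pore-forming Prf1 544 against 816 (-0.58) and Nkg7 1829 against 2145 (-0.23). The sum of the list there was 15514 CPM in members and 15756 in other cells. Gzma, Prf1, Nkg7 and Srgn did not pass over all members. Among members with 3 or more score genes, 2 of the 12 were higher and 1 lower in lung, and 1 was higher and 1 lower in blood. Over all 11597 genes tested in these members, 331 were higher and 85 lower in lung, and 231 higher and 50 lower in blood.

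Among chemokines and cytokines, 0 of 9 were higher in lung and 1 in blood. Ltb, a lymphotoxin subunit, had 58.3, 123 and 145 CPM in blood members of naive mice, 6 h and 14 days against 36.4, 60.3 and 48.0 in other cells (log2 fold 1.14, adjusted p 0.000407, edgeR). Cxcl10, a chemokine induced by interferon, was found in 74 of 321 members of 14-day lung, at 468 CPM against 14.4 in other cells, and in 0 of 82 members of 14-day blood. It did not pass (log2 fold 3.67, adjusted p 0.328 in lung, edgeR). Xcl1, an attractant of dendritic cells, had 1898 CPM in 14-day lung members against 753, while naive lung had 234 against 272. Ccl5, Ccl4 and Ccl3 did not pass over all members. Among members with 3 or more score genes, 2 of 8 genes of the list were higher and 1 lower in lung, and 1 was higher in blood. Over all 11597 genes tested, 331 were higher and 85 lower in lung, and 231 higher in blood. Here too the groups differ in the share of members with 3 or more score genes.

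In members as a whole, genes of NK maturation gave no calls, with a lower level of late markers in 14-day lung members. Of 19 genes 0 passed in either tissue, with medians of 0.01 in both. In 6 of 6 pairs 3 were lower and 2 higher, against 6.08% and 2.93% of all genes tested. The list summed to 2162 CPM in 14-day lung members against 2599 in other cells. In naive blood it was 3786 against 4206 and in 14-day blood 2725 against 3140, while naive lung members were higher, at 3843 against 3794. Among members with 3 or more score genes 2 of the 19 were higher and 4 lower in lung, and 2 higher and 3 lower in blood. Over all 11597 genes tested in these members, 331 were higher and 85 lower in lung, and 231 higher and 50 lower in blood. Klrg1, a receptor of terminally differentiated NK cells, had 36.0 CPM in members of 14-day lung against 114 in other cells (log2 ratio -1.67, 95% CI -1.97 to -1.37), and between 150 and 178 against 170 to 217 in the other 5 groups. Itgam, which encodes CD11b, had 107 against 189 CPM in 14-day lung (-0.82, 95% CI -1.0 to -0.65) and log2 ratios between -0.36 and 0.06 elsewhere. The transcription factor Zeb2 was lower in members in 6 of 6 pairs with a log2 fold of -0.18 in lung, and Tbx21, Eomes and Ccr2 had log2 folds within 0.03 of 0 in lung. None of these passed over all members. The groups also differ in the share of members with 3 or more score genes (66.0% in 14-day lung, 7.03% in naive lung), whose part in these ratios was not tested.

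The share of members was compared between cells grouped by detected genes at equal depth. A cell without a UMI of a gene at this depth may still express it, so these groups are not NK states. After thinning to 3000 UMIs, where a member needed 2 score UMIs, 188 of 1875 cells of 14-day lung with neither Cd27 nor Itgam (10.0%, 95% CI 8.70 to 11.5) and 32 of 331 with Cd27 only (9.67%, 6.71 to 13.4) were members, against 58 of 1209 with Itgam only (4.80%, 3.66 to 6.16). Of cells with both genes, 5 of 122 were (4.10%, 1.34 to 9.31). In naive lung the shares for neither, Cd27 only, Itgam only and both were 4.18%, 5.41%, 2.75% and 6.95%, and in 6 h lung 4.34%, 3.99%, 4.39% and 4.33%, so the order of 14-day lung was not found at 6 h. Cells of 14-day lung with a UMI of Itga1 or Pmepa1, genes of tissue residency and of the response to TGF-beta, were members in 125 of 1216 cases (10.3%, 8.63 to 12.1) and those without in 158 of 2321 (6.81%, 5.82 to 7.91). In 6 h lung the same shares were 4.85% and 4.27%. The classes rest on the UMIs of the cells themselves and share the library, so these are descriptions.

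Residency genes and surface receptors changed in few cases. Of 10 residency and TGF-beta genes 2 passed in lung and 0 in blood. Cd69, which retains lymphocytes in tissue and is induced on activation, had 63.5, 44.4, 99.3, 57.3, 199 and 44.5 CPM in members in the usual order against 36.2, 30.6, 56.1, 35.1, 64.9 and 22.5 in other cells, and a log2 fold of 1.19 in lung (adjusted p 0.000906, edgeR). Pmepa1 passed in lung at 0.55, and Tgfb1, Smad7, Skil and Ski did not pass. Of 16 activating and checkpoint receptors 0 were higher, and 1, the Ly49 receptor Klra4, was lower in blood (log2 fold -0.29, adjusted p 0.0150, edgeR), in a family of near copies. Among members with 3 or more score genes, 1 receptor was higher and 3 lower in lung, and 1 was higher and 2 lower in blood. Over all 11597 genes tested in these members, 331 were higher and 85 lower in lung, and 231 higher and 50 lower in blood. Klrk1, Ncr1, Klrb1c and Klrd1 had log2 folds between -0.09 and 0.20 in lung.

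Genes of handling, stress and division were counted as a check. Of 14 immediate early genes 2 were higher in lung, Atf3 (log2 fold 1.497) and Fos (0.52), and 0 in blood. Of 9 heat shock genes 0 passed, with medians of -0.01 and 0.11. Of 18 cell cycle genes 0 were higher and 1, the proliferation marker Mki67, was lower in lung (log2 fold -1.61, adjusted p 0.0381, edgeR), where the members held 1.79 to 3.38 CPM against 7.76 to 9.23. The median of the list was -0.48 in lung and -0.17 in blood. Pclaf, a replication factor, and the linker histone H1f5, both named after their values were seen, fell by 3.87 and by 2.02 on the log2 scale in lung.

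The effect of membership, members over other cells, was compared between lung and blood. In 0 of 11897 genes (0.00%) did the member effect differ between tissues at an adjusted p under 0.05 with edgeR's quasi-likelihood test, while 431 had an unadjusted p under 0.05, and DESeq2 called 0 with 190. The smallest p belonged to Zfp948, a zinc finger gene with log2 folds of 0.50 in lung and -1.78 in blood (difference 2.28, adjusted p 0.0975, edgeR). Tmem156, Nrgn, Nbea and Dnai4 followed at an adjusted p of 0.588, of which Nbea and Dnai4 had no UMI in blood members. The effectors had a median difference of 0.34 toward lung without a call. A p that misses the threshold does not show that the tissues act alike.

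**Figure D5:**
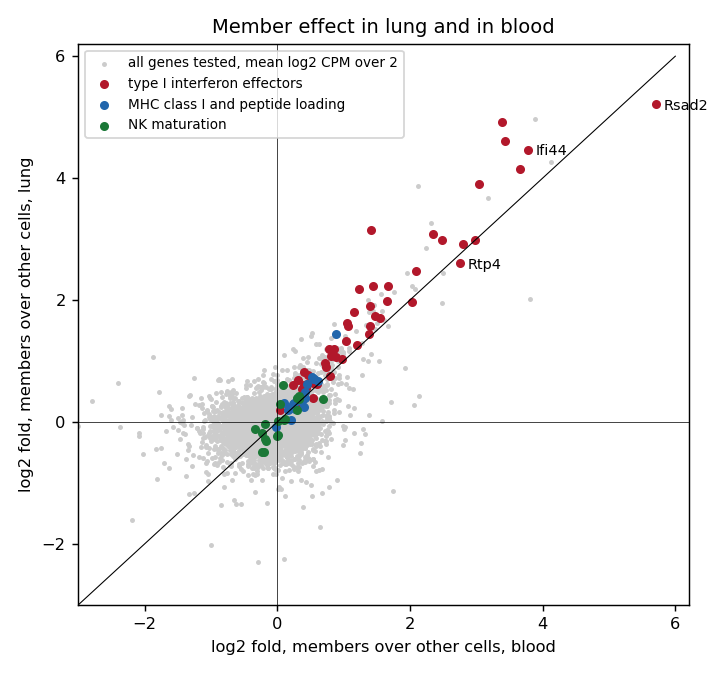
Log2 fold of members over other cells in blood (horizontal) and lung (vertical) for genes with a mean log2 CPM over 2; grey points are all such genes, coloured points 3 of the lists, and the diagonal marks equal effects. Ifit3b lies under the level limit and is not drawn, and the effectors shown reach up to Rsad2, at log2 folds of 5.21 in lung and 5.71 in blood, and maturation genes stay near 0.

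The members with many and with few score genes were also fitted apart, a choice made after seeing the data. Members with 3 or more genes gave 416 calls in lung and 281 in blood, with 54 and 48 of 60 effectors higher and medians of 2.56 and 1.95. Of all 11597 genes tested there, 331 were higher and 85 lower in lung, and 231 higher and 50 lower in blood. Members with 1 or 2 genes gave 106 and 89 calls, with 27 and 16 of 54 effectors higher and medians of 0.70 and 0.53. Of all 11656 genes tested there, 77 were higher and 29 lower in lung, and 60 higher and 29 lower in blood. The effectors of cells with few score genes were therefore also above those of the other cells, at a smaller size.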

How the data were processed

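The single-cell libraries of NK cells were 3, 1 each of naive mice and of mice 6 h and 14 days after tumor cell injection, each holding lung and blood. The authors deposited raw UMI counts per gene and hashtag for every barcode, made with Cell Ranger (the header of the matrices names version 7.1.0) on GRCm38.p6, without normalization; the submitters' processing notes also name Seurat 5.0. Kept barcodes had 800 to 5000 detected genes, at most 6% mitochondrial counts and 1 hashtag with at least 90% of tag counts. Barcodes without 1 dominant tag were dropped, doublets within a tissue remained, and no doublet caller was run. Summed counts of the 12 profiles lay between 606304 and 34251272 UMIs, and members had few cells in some, which limits precision.

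The score was the share of a cell's counts in the 5 genes, and the top 5% of cells were members. The members and lists were chosen with earlier results of these data known. Counts were summed per library, tissue and class and tested with edgeR 4.0.16 (quasi-likelihood, robust prior, trimmed-mean normalization, genes filtered on low counts) with the library and tissue as a block. The score genes stayed in library sizes but out of the tests. The study describes 5 mice per group for this experiment, and the sources do not say how these were combined into a library. The p-values rest on how the difference between members and other cells varied over the 3 libraries, each of another time point. They do not measure a spread between mice or replicate libraries. The fit had 4 residual degrees of freedom and a median of 28.7 prior ones borrowed from other genes. Lung and blood of a library were taken as separate blocks. The fit was tested on simulated data. Thinning to 3000 UMIs left out 265 cells. Thinned scores tie, so a cell needed 2 UMIs, which 4.08% reached.

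Genes were named by rule: the score genes, up to 5 genes of highest mean CPM of each list (all of lists of at most 6), up to 10 genes called the same way in both tissues outside the lists, and the 5 with the smallest p of the difference between tissues. Other genes named in the text, such as Ifi44, Isg20, Rsad2, Mx1, Irf9, Gbp6 and Cxcl10, were chosen after their values were seen. Coordinates are from GENCODE M21 on GRCm38, and promoter windows from RefSeq. Alternatives changed the cut, the depth, the totals, the hashtag share, the score genes, the normalization, the filter, the block, the libraries and the tool (DESeq2 1.42.0). Analyses used R 4.3.3, Python 3.11.15, numpy 2.4.6 and scipy 1.17.1.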

Additional observations from a re-analysis of the deposited data

Results flagged for a closer look

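In naive mice the share of kept cells that were members with 3 or more of the 5 score genes was lower in lung than in blood, with a ratio of 0.533 (95% CI 0.277 to 1.02, which includes 1), while 14 days after tumor cell injection it was higher in lung, with a ratio of 3.72. The result was looked at again because the direction turned between the time points, and the difference between them was not tested, since each time point is 1 library. The naive ratio rests on 13 cells of lung and 29 of blood.

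Barcodes outside the comparisons were scored as well. Of 634 barcodes with less than 90% of tag counts for either hashtag, 19 reached the member cut (3.00%, 95% CI 1.81 to 4.64), below the 5% of kept cells that the cut selects, and these barcodes had a median of 13277 UMIs against 6769 in the other kept cells.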

How the results depend on the processing

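The share of 14-day lung over naive lung, 1.78, was 3.42 in the top 2.5% of cells, 1.27 in the top 10% and 2.18 after thinning. Over 14-day blood it was 2.27, and 3.65 in the top 2.5% and 2.95 after thinning. Naive lung over naive blood (1.73) reversed to 0.533 for members with 3 or more score genes and to 0.326 for cells with 3 or more genes at 3000 UMIs, both chosen after seeing the data. These 2 settings gave 16.8 and 38.6 for 14-day over naive lung, 3.72 and 7.39 for 14-day lung over blood, and 3.20 and 3.10 for 6 h over naive lung. The former gave 2.40 for 14-day over naive blood and the latter 0.859 for 6 h over naive blood. 14-day over naive blood (1.36) was 1.03 in the top 10%. 6 h over naive lung (1.04) was 1.28 in the top 2.5%, 1.26 without Irf7 and 0.825 without Isg15 in the score, and 6 h over naive blood (1.20) was 0.905 in cells without another cell type's marker.

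Calls in lung and blood, 136 and 42, became 309 and 181 without the filter, 11 and 0 without the block, 212 and 93 without the robust prior (added after seeing the data), 28 and 279 with each tissue alone, 350 and 281 in the top 2.5%, 54 and 17 in the top 10%, 44 and 11 with the top 5% of each library and tissue, and 416 and 281 for members with 3 or more genes. In blood they were also 97 with DESeq2, 14 without other cell types' markers and 89 for members with 1 or 2 genes. Leaving out 1 library gave 131 (naive), 289 (6 h) and 190 (14 days) in lung and 22, 118 and 244 in blood. Genes that differed between the tissues, 0, were 3 without the filter, 3 in the top 2.5%, 2 after thinning, 4 for members with 3 or more genes and 5 for those with 1 or 2, and 0 to 4 with 1 library left out. The cause of these changes was not tested.

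The effector median in lung, 1.72, was 0.70 for members with 1 or 2 genes and 1.03 to 1.87 with 1 library left out, lowest without the 14-day library. In blood, 1.31, it was 1.21 with DESeq2, 1.23 alone, 1.70 in the top 2.5%, 0.79 in the top 10%, 1.11 after thinning, 1.08 without other cell types' markers, 1.01 within each library and tissue, 1.95 for members with 3 or more genes, 0.53 for those with 1 or 2, and 1.18 to 1.25 with 1 library left out. Of 333 values of 21 single-gene results, 193 kept their direction and call, 139 lost the call and 1 reversed, Ly6a in lung at -0.49 for members with 1 or 2 genes. No paired analysis was possible because each time point holds 1 library, so no replicates could be matched between time points; members and other cells were already paired within library and tissue by the block.

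With 1 library per time point, differences between time points cannot be told apart from differences between libraries. Members with 3 or more score genes are few outside 14-day lung, and a gene with few UMIs in them is measured with little precision.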
